A study of Drosophila melanogaster with 2 samples.

Results

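The Lmd-eGFP binding sites described here were called in biological replicate 1 of a chromatin immunoprecipitation sequencing experiment and had no called counterpart in biological replicate 2. They were chosen by the calls themselves: a peak of the replicate 1 thresholded set on arm 2L, 2R, 3L, 3R, 4 or X was taken when it overlapped no peak of the replicate 2 thresholded set by at least 1 bp. This rule gave 767 of the 3929 replicate 1 peaks on these arms, or 19.5% (Wilson 95% interval 18.3 to 20.8%), out of 9473 peaks in both sets together. The other 3162 replicate 1 peaks were shared. On the other side, 2359 of 5544 replicate 2 peaks (42.6%) were called in replicate 2 only.

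Both replicates came from 1 group, whole Drosophila melanogaster embryos of 0 to 18 hours from a transgenic line, named lmd-GFP in the labels, in which lame duck (lmd) is fused to eGFP. Chromatin bound by the fusion was pulled down with anti-GFP antibody after it had been sonicated to fragments of 200 to 800 bp. Every sample carried the transgene, no untagged embryos or control libraries were analysed here, and nothing in the labels gives the cell type in which the fusion protein was present. Whole embryos mix all tissues, so a weak peak from few cells and a weak peak from many cells cannot be told apart. The depth of sequencing is unknown, so it cannot be said how weak a site could still be called in either replicate.

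Lmd belongs to the Gli superfamily of zinc finger proteins and acts on transcription. Drosophila embryos need it for their fusion-competent myoblasts, which join founder myoblasts to build muscle fibres, and it activates Mef2, a muscle differentiation factor. Transcription factors of this kind can bind promoters, which lie at transcription start sites (TSSs), and enhancers, which often lie in introns or between genes.

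The sequences around 6 summits, the positions of highest signal within a peak, are shown to set the strongest replicate 1 only site of the 3 large genomic classes beside the strongest shared site of the same class, among arms from which sequence is shown. Each runs over 101 bp centred on the summit, from the plus strand of the Release 6 genome (dm6, RefSeq). Capitals mark a match to any of the 19 motifs searched. Here and below, outside genes means outside protein-coding genes, since genes of other kinds were not counted. The 3 replicate 1 only windows come first. They lie at chr3L:1319236-1319336 in an intron of Myo61F, a class I myosin, at chr2L:2201174-2201274 outside genes, and at chr3L:14448826-14448926 at a promoter of bbg. The chr2L window has COX7AL2, a gene for a cytochrome c oxidase subunit, as the nearest TSS. The bbg gene encodes a PDZ domain protein.
Myo61F intron: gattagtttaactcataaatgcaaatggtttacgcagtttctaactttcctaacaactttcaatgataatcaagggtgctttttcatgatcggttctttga
COX7AL2 outside: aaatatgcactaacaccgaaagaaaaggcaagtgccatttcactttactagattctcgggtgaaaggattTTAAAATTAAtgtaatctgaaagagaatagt
bbg promoter: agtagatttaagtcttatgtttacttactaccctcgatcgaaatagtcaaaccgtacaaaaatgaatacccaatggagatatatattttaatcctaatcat
ph-p intron: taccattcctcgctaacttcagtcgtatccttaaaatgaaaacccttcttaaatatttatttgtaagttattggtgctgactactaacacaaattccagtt
tara outside: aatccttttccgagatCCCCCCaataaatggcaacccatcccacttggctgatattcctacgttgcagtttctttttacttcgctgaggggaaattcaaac
Ugalt promoter: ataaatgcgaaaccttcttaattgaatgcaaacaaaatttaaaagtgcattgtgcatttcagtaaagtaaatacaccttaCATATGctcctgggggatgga
The last 3 are shared, at chrX:2137306-2137406 in an intron of ph-p, a Polycomb group gene, at chr3R:16222450-16222550 outside genes with tara as the nearest TSS, and at chrX:2703844-2703944 at the promoter of Ugalt, a UDP-galactose transporter gene. Of the replicate 1 only windows, the one near COX7AL2 held a match to the Mef2 motif and the others held none of the motifs. Among the shared windows, the one near tara held a run of C and the one at Ugalt a Twist-type E-box.

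The replicate 1 only peaks were weaker on average than the shared peaks. Signal and calls come from the same lists, so these values are a description. The signal, the authors' value for each peak, in no stated unit, spanned 2.00 to 178 with a median of 57.1 in the 767 replicate 1 only peaks. In the 3162 shared peaks it spanned 2.05 to 1609 with a median of 97.8. The strongest replicate 1 only peak had rank 659 by signal in the replicate 1 set of 3983 peaks on all sequences. When the 3929 peaks were divided by signal into 5 groups of nearly equal size, replicate 1 only peaks made up 46.6% of the weakest group and then 28.2%, 17.0%, 5.09% and 0.637% of the stronger ones. The strongest group held 5 of them. The width was 340 bp in 754 of the 767 replicate 1 only peaks (98.3%) and in 2216 of the shared peaks (70.1%).

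A small set of very weak peaks lay beside stronger ones. A signal under 30 was found in 42 replicate 1 only peaks, and 35 of these overlapped another replicate 1 peak. It was found in 84 shared peaks, of which 83 overlapped another replicate 1 peak. In all, 72 replicate 1 only peaks (9.39%) and 203 shared peaks (6.42%) overlapped a second peak of the same set, so neighbouring peaks were not always separate sites. The weakest replicate 1 only peak, with a signal of 2.00, lay outside genes 20317 bp from the TSS of mirr, a homeobox gene.

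Many replicate 1 only sites lay over a weaker entry of replicate 2. The authors' ranked list of replicate 2 holds 90837 entries, which together cover 21.2% of the 6 arms, so an overlap alone does not show a site. Of the replicate 1 only peaks, 682 of 767 (88.9%) overlapped at least 1 entry, while 85 (11.1%) overlapped none. All 3162 shared peaks overlapped an entry, as their choice requires. By its strongest overlapping entry, the replicate 2 rank of the replicate 1 only peaks ran from 3170 to 87629 with a median of 8749.5. In shared peaks it ran from 1 to 32267 with a median of 1768.5. For 87 replicate 1 only peaks the rank was within 5551, the length of the replicate 2 thresholded set, and for 385 (50.2%) it was within 10000. Summits of the paired entries lay a median of 37 bp apart for replicate 1 only peaks and 18 bp apart for shared peaks.

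**Figure D1:**
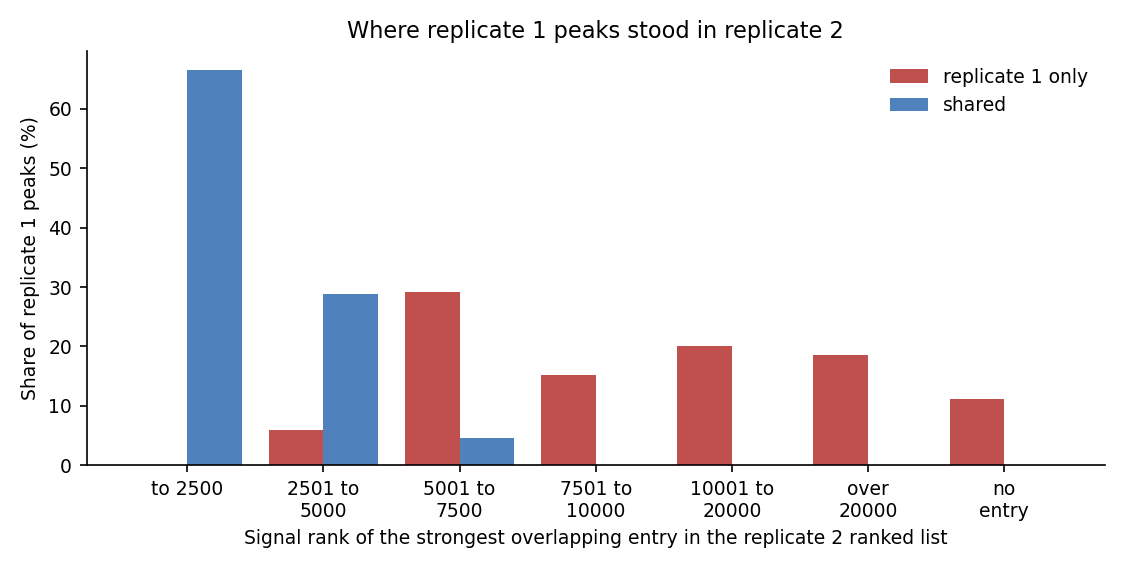
Share of replicate 1 peaks (%) by the signal rank of the strongest overlapping entry in the replicate 2 ranked list, with replicate 1 only peaks (n = 767) left of shared peaks (n = 3162) in each bin. No replicate 1 only peak ranked within the first 2500, against 66.4% of shared peaks, and 29.2% of replicate 1 only peaks ranked over 5000 and up to 7500.

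The irreproducible discovery rate (IDR) is low where a peak ranks high in each of the lists compared. It is high where the ranks disagree or are low. The replicate 2 entry under 157 replicate 1 only peaks (20.5%) had an IDR at or below 0.05, whereas the thresholded sets stop at 0.01. For 52 it lay between 0.05 and 0.1, for 193 between 0.1 and 0.5, and for 280 (36.5%) it was above 0.5. The 5 closest to the level were in an intron of bab1, which encodes a BTB transcription factor (IDR 0.01005), in an intron of Ca-beta, a calcium channel subunit gene (0.0101), at the promoter of Fum3, a fumarase gene (0.0102), in an intron of spri (0.0104) and 1687 bp from the TSS of CG12206 (0.0104).

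The authors also deposited peaks called on both replicates together. The conservative joint set covered 371 replicate 1 only peaks (48.4%) and 99.4% of shared peaks, and the wider joint set covered 581 (75.7%) and 99.2%. Neither joint set held 166 of the replicate 1 only peaks (21.6%), against 0.316% of shared peaks. The part in neither was 27.1% of the 288 replicate 1 only summits outside genes, 19.1% of the 366 in introns and 11.8% of the 85 at promoters. These sets were built from the same libraries and give no independent check.

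The values in the 2 replicates can be set side by side for the strongest sites, although no common scale of signal is stated. The peak with the nearest TSS at CG7737, on 2R at 11222445 to 11222598, had a signal of 178 in replicate 1 and no entry in replicate 2, and a called replicate 2 peak began 30 bp away. The Myo61F site had 176 in replicate 1 and 52.6 in replicate 2 at rank 4725. The CG9815 promoter had 165 in replicate 1 and 44.4 in replicate 2. These 3 peaks were narrow, with widths of 154, 147 and 161 bp.

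An intron of corn, which encodes a microtubule-binding protein, had 164 in replicate 1 and 35.4 in replicate 2. The bbg promoter had 163 and no replicate 2 entry under its 93 bp, although both joint sets held it. An intron of nmo, which encodes a Nemo-like kinase, had 153 in replicate 1 and 49.9 in replicate 2. The remaining 4 of the 10 strongest lay outside genes, near COX7AL2 (146 in replicate 1 and 47.8 in replicate 2), CG43245 (146 and 28.0), chinmo (146 and no entry) and Gr93a (145 and 11.7). The nearest called replicate 2 peak was 959, 7217, 53 and 246 bp away, in the same order. Chinmo encodes a BTB zinc finger protein of neuronal temporal identity, and Gr93a a gustatory receptor. Across these 10 sites, 3 had no replicate 2 entry and the other 7 had an entry of lower signal and of rank 4725 to 52896.

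**Figure D2:**
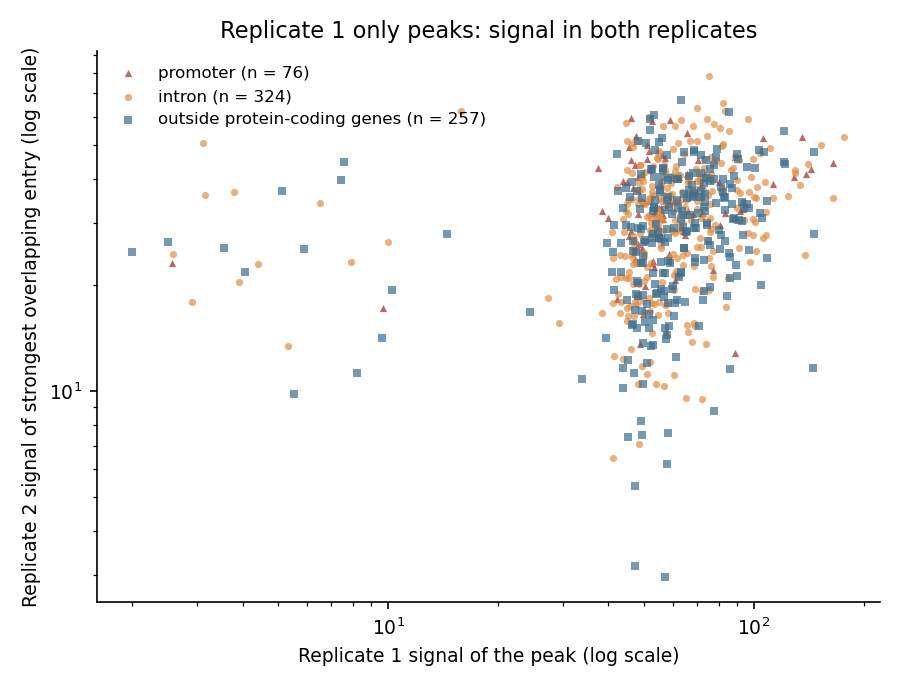
Replicate 1 signal of each replicate 1 only peak (horizontal, log scale) against the signal of its strongest overlapping entry in the replicate 2 ranked list (vertical, log scale), for summits at promoters (n = 76), in introns (n = 324) and outside protein-coding genes (n = 257). Points of the 3 classes overlap, and a few peaks with replicate 1 signal under 30 stand apart on the left; the replicates have no stated common scale.

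Close to the border of the rule, the gap between a replicate 1 only peak and a replicate 2 peak was 0 bp at mam, 7 bp at Nt5b, 18 bp near hry, 30 bp near CG7737 and 48 bp at Pgd. Just across it, shared peaks overlapped a replicate 2 peak by 6 bp at chb, 7 bp at E2f1, 12 bp at CG17292, 21 bp near Fmo-2 and 22 bp at CG10543. In all, 66 replicate 1 only peaks lay within 500 bp of a replicate 2 peak and 482 (62.8%) within 10 kb, with a median distance of 5877 bp.

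The replicate 1 only sites lay away from promoters, which the rule did not use. A summit within 500 bp of a TSS of a protein-coding gene was called a promoter summit. Only 85 of 767 replicate 1 only summits (11.1%, Wilson 95% interval 9.05 to 13.5%) were promoter summits, against 1335 of 3162 shared summits (42.2%, 40.5 to 44.0%). The difference was −31.1 percentage points (Newcombe 95% interval −33.8 to −28.2, Fisher's exact test, two-sided, adjusted over 6 classes, adjusted p = 3.8e-66). Introns held 366 replicate 1 only summits (47.7%) and 40.0% of shared summits, a difference of 7.68 points (3.77 to 11.6, Fisher's exact test, adjusted p = 0.00018). Summits outside protein-coding genes made up 288 (37.5%) and 16.3%, a difference of 21.2 points (17.6 to 24.9, Fisher's exact test, adjusted p = 1.0e-34).

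These p-values and intervals take peaks as units and cover counting error only, because the split itself was made once and has no replicate. The intron difference did not hold when sharing required an overlap of at least 0.5 of both peaks (1.56 points, Fisher's exact test, adjusted p = 0.415), nor for the replicate 1 only peaks held by neither joint set (2.13 points, adjusted p = 0.751). The promoter and the outside differences passed under both, but with the stricter overlap they were −13.8 and 10.9 points.

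Summits in coding sequence were few but more frequent among replicate 1 only peaks, 17 (2.22%) against 10 shared summits (0.316%), a difference of 1.90 points (1.03 to 3.21, Fisher's exact test, adjusted p = 1.7e-06). Of the 17, 12 lay in the weakest of the 5 signal groups and 5 in the next. At a replicate 1 IDR of 0.001 or less the coding difference was −0.202 points. It remained within the 5 signal groups, at 1.42 points, and among peaks that overlapped no other replicate 1 peak, at 1.39 points. The 3′ UTRs held 8 replicate 1 only and 23 shared summits (Fisher's exact test, adjusted p = 0.438), and the 5′ UTRs 3 and 12 (adjusted p = 1).

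**Figure D3:**
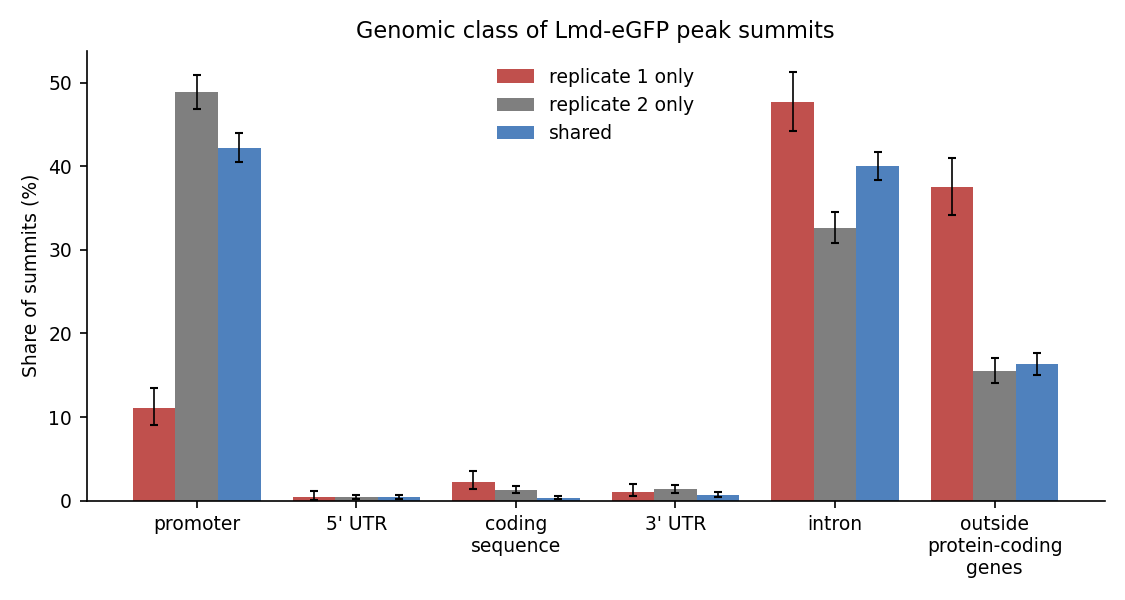
Share of summits (%) in each genomic class for replicate 1 only peaks (n = 767), replicate 2 only peaks (n = 2359) and shared replicate 1 peaks (n = 3162), with Wilson 95% intervals for counting error. Replicate 1 only peaks had 11.1% of summits at promoters, against 48.9% of replicate 2 only and 42.2% of shared peaks.

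The low promoter share was seen at nearly every level of signal. In the 5 signal groups, from the weakest, promoters held 10.9%, 10.4%, 8.96% and 17.5% of replicate 1 only summits in groups 1 to 4, against 40.7%, 39.4%, 37.3% and 41.0% of shared summits. Group 5 had 5 replicate 1 only peaks, 3 of them at promoters, too few to compare. Seen from the other side, among peaks of group 1 the replicate 1 only share was 19.0% at promoters (40 of 211), 48.9% in introns (174 of 356) and 70.2% outside genes (132 of 188). In group 4 it was 2.24%, 5.43% and 10.5%. Signal itself hardly differed between the classes of replicate 1 only peaks, with medians of 57.1 at promoters, 57.5 in introns and 57.7 outside genes.

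**Figure D4:**
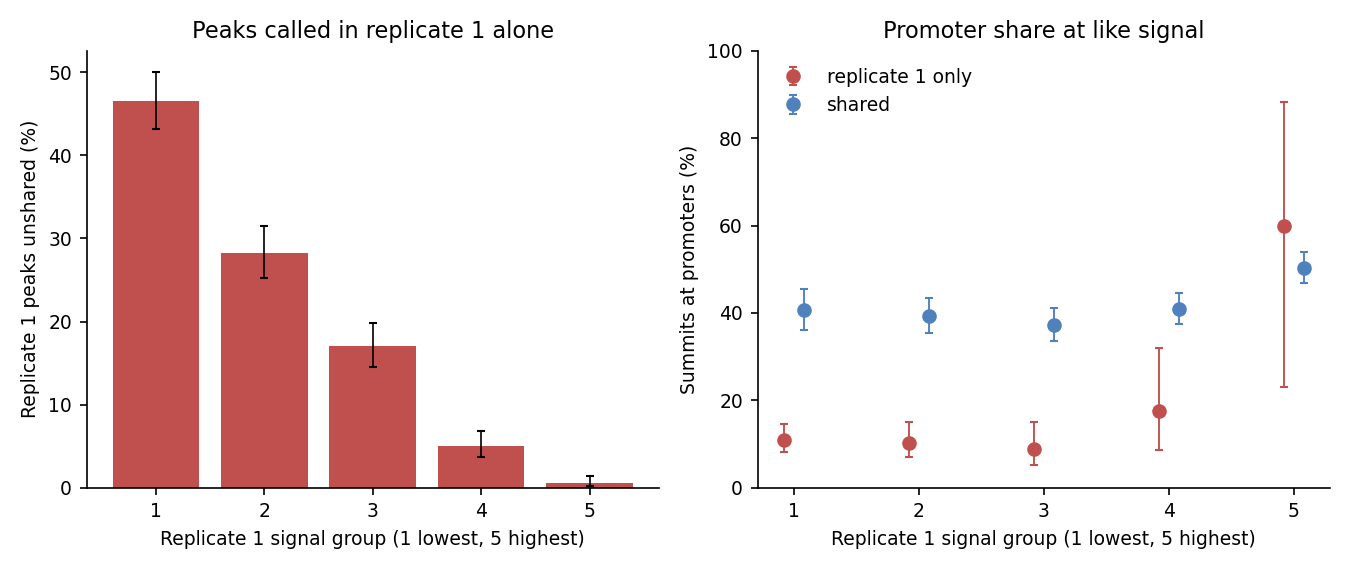
Left, the share of replicate 1 peaks that were unshared (%) in 5 groups of replicate 1 signal, which was 46.6% in the weakest and 0.637% in the strongest group. Right, the share of summits at promoters (%) for replicate 1 only and shared peaks of the same group, with Wilson 95% intervals; the 2 sets are apart in groups 1 to 4, and the last replicate 1 only point rests on 5 peaks.

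The unshared peaks of the other replicate lay at promoters far more often. Promoters held 48.9% of the 2359 replicate 2 only summits, so the difference between replicate 1 only and replicate 2 only peaks was −37.8 points (−40.7 to −34.6, Fisher's exact test, adjusted p = 1.1e-86). Introns held 47.7% of replicate 1 only and 32.6% of replicate 2 only summits, a difference of 15.1 points (11.1 to 19.1, Fisher's exact test, adjusted p = 1.8e-13). Outside genes the shares were 37.5% and 15.5%, a difference of 22.0 points (18.4 to 25.8, Fisher's exact test, adjusted p = 3.4e-35). Against the shared peaks of their own list, replicate 2 only peaks differed by 6.49 points at promoters and by −6.92 points in introns (Fisher's exact test, adjusted p = 5.3e-06 and 8.0e-07). In coding sequence they differed by 0.947 points, the same direction as replicate 1 only peaks, and outside genes by −1.22 points, which did not pass (Fisher's exact test, adjusted p = 0.269). Because the replicate 2 set is longer, it was also cut to its 3929 strongest peaks: promoters then held 12.4% of 1141 replicate 1 only and 53.7% of 1190 replicate 2 only summits. Whether the replicates differed in the age of the embryos, in depth or in another way was not tested.

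Distances from the TSS followed the same order. The median distance from summit to nearest protein-coding TSS was 4433 bp in replicate 1 only peaks, 533 bp in replicate 2 only peaks and 850 bp in shared peaks. More than 5 kb away lay 47.1% of replicate 1 only, 17.1% of replicate 2 only and 21.6% of shared summits. Beyond 10 kb lay 206 replicate 1 only summits (26.9%), 7.72% of replicate 2 only and 10.8% of shared summits. The neighbourhood was also poorer in protein-coding genes. A replicate 1 only summit had a median of 1 such gene start within 10 kb, against 3 for a shared summit. None lay within 10 kb of 34.9% of replicate 1 only and 18.2% of shared summits.

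**Figure D5:**
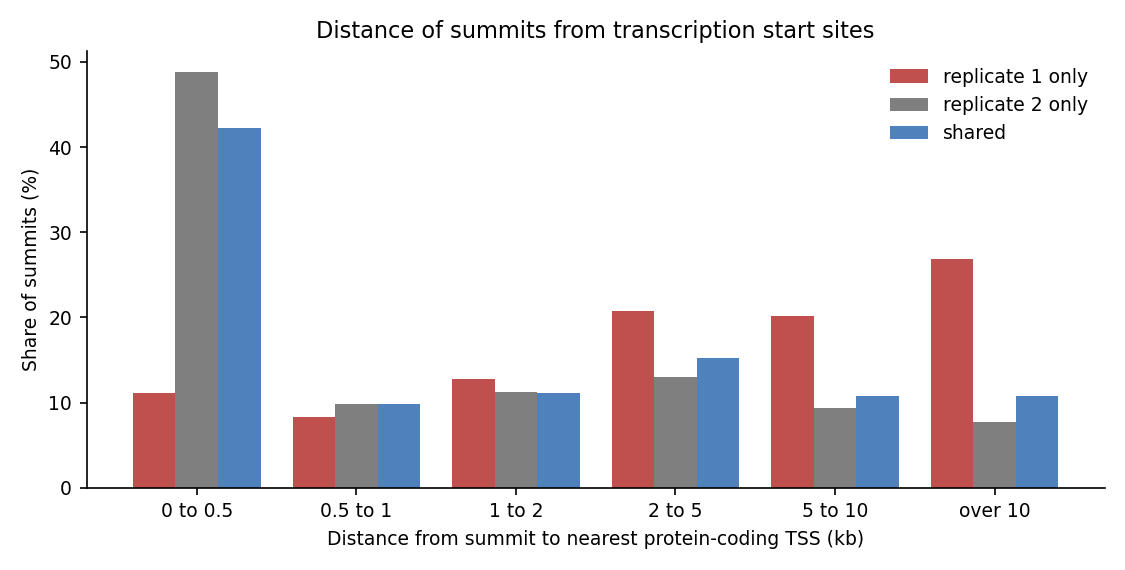
Share of summits (%) by distance to the nearest protein-coding TSS (kb) for replicate 1 only, replicate 2 only and shared peaks. The bin up to 0.5 kb held 11.1% of replicate 1 only, 48.9% of replicate 2 only and 42.2% of shared summits, and the bin over 10 kb held 26.9%, 7.72% and 10.8%.

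The few promoters among the replicate 1 only sites were mostly those of a single gene. TSSs of 2 or more genes lay within 500 bp of 8 of the 85 replicate 1 only promoter summits (9.41%), against 537 of 1335 shared promoter summits (40.2%). Their summits also lay farther from the TSS within the window, at a median of 282 bp, against 150 bp for shared promoter summits. No test was made of these values, which were looked at after the class shares were known.

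Arms 3L and X held unlike shares of the sets. Arm 3L held 206 replicate 1 only peaks (26.9%) and 20.8% of shared peaks, a difference of 6.02 points (2.67 to 9.54, Fisher's exact test, adjusted over 6 arms, adjusted p = 0.0023). The X chromosome held 127 (16.6%) and 21.5%, a difference of −4.92 points (−7.78 to −1.79, Fisher's exact test, adjusted p = 0.0070). With an overlap of at least 0.5 of both peaks they were 2.58 and −2.13 points and neither passed, and the X difference also missed the threshold within the 5 signal groups (−4.08 points) and at a replicate 1 IDR of 0.001 or less (−4.54 points). Other settings gave larger differences: outside promoters the X difference was −7.90 points (Fisher's exact test, adjusted p = 0.000103), and at a replicate 1 IDR of 0.001 or less the 3L difference was 9.73 points (adjusted p = 0.0021). Arms 2L, 2R and 3R held 18.9%, 15.5% and 22.0% of replicate 1 only peaks, and chromosome 4 held 1 of them.

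Windows rich in G and C were more frequent among replicate 1 only sites, and the difference in mean GC content was not seen at like signal. Over 201 bp, GC content was 36.5 ± 8.42% in replicate 1 only windows (SD over 767 peaks) and 34.4 ± 6.64% in shared windows (SD over 3162 peaks), with medians of 34.8% and 33.8%. The difference in means of 2.16 points was −0.0213 points averaged over the 5 signal groups, 0.0096 points without the strongest group, and −0.551 points at a replicate 1 IDR of 0.001 or less. A GC content over 50%, a bound set after the values were seen, was found in 73 replicate 1 only windows (9.52%) and 71 shared windows (2.25%). Unlike the means, these shares were not compared at like signal. These 73 included 15 of the 17 summits in coding sequence, 27 of the 288 outside genes, 19 of the 366 in introns and 10 of the 85 at promoters. Sequence marked as repetitive in the genome made up 21.4% of replicate 1 only and 22.3% of shared windows. That difference of −0.870 points turned to 3.59 points averaged over the 5 signal groups, 2.47 points without the strongest group, and 2.04 points at a replicate 1 IDR of 0.001 or less. An annotated transposable element held 5 of 767 replicate 1 only summits (0.652%) and 6 of 3162 shared summits (0.190%). These are descriptions without a test.

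A window of this GC-rich kind is shown beside the replicate 1 only site nearest to lmd itself. The first is a GC-rich summit in coding sequence, the strongest on the arms from which sequence is shown, at chr3R:10863647-10863747 within SelR, a methionine sulfoxide reductase gene, 709 bp from a TSS of CG6574. It had a signal of 59.2 in replicate 1 and 27.0 in replicate 2, and 68.3% of its 101 bp were G or C. The second, at chr3R:23018685-23018785, lies beyond the 3′ end of lmd.
SelR coding sequence: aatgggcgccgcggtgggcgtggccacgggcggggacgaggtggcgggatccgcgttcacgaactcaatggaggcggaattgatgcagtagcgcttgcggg
lmd 3 prime flank: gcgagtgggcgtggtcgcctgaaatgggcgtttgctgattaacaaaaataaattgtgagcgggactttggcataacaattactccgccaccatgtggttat
Neither window matched a motif on the list.

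The locus of a gene was taken as its body with 2 kb on each side. No replicate 1 only summit lay in the lmd locus (3R, 23021222 to 23026713, minus strand), and its 1 replicate 1 peak, 1969 bp upstream of the TSS, was shared, with a signal of 128 and replicate 2 rank 271. The replicate 1 only peaks past the 3′ end lay at 23018565 to 23018904, with a signal of 42.4, and at 23018765 to 23019104, with a signal of 5.13. They overlap each other and the same replicate 2 entry, of rank 6774 and IDR 0.0138, so they describe 1 stretch of chromatin. Mef2 had 0 replicate 1 only, 5 replicate 2 only and 3 shared summits.

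Across the genome, 575 of 13945 protein-coding genes (4.12%) had a replicate 1 only summit in the locus, 22.6% a replicate 2 only summit and 25.2% a shared one. The counts for gene lists are given beside these shares without a test, and long genes collect more summits of any kind. Among 17 myoblast fusion genes, 5 had a replicate 1 only summit, 4 a replicate 2 only summit and 10 a shared one, with a median gene length of 6592 bp against 2166 bp over all genes. The 5 were rols, an adaptor of founder cells, kirre and rst, immunoglobulin receptors of myoblasts, and Vrp1 and blow, which act on actin at the fusion site.

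Their sites differed in kind and in replicate 2 support. The rols site lay in an intron with a signal of 93.9 in replicate 1 and 30.6 in replicate 2. The kirre and rst loci overlap and shared 1 peak of 72.1 and 33.5, in the 3′ UTR of rst and with CG3603 as the nearest TSS. The kirre locus, which held 21 shared summits, had a second replicate 1 only peak in an intron, at 3073531 to 3073870 on X with CG4116 as the nearest TSS, of signal 53.0 with no replicate 2 entry. Vrp1 had 57.9 in replicate 1 and 11.1 in replicate 2, in coding sequence, in neither joint set. The blow promoter had 46.7 and 37.8, with a replicate 2 IDR of 0.0438.

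Genes of other muscle lists held such sites at shares above the 4.12% of all genes, and their median gene lengths, 4989.5 to 16466 bp, were also above that of all genes. This was not particular to muscle, since the lists for neurons, glia, epidermis, and hemocytes and fat body, given below, also exceeded 4.12%. Of 32 mesoderm and muscle transcription factor genes, 3 (9.38%) had a replicate 1 only summit, against 12 with a shared one. They were kn, a COE factor, and the T-box genes Doc1 (49.8 in replicate 1 and 34.2 in replicate 2) and org-1 (47.9 and 36.9). The kn site had 88.9 and 30.5, with BEAF-32 as the nearest TSS, 11750 bp away. Of 26 sarcomere genes, 2 (7.69%) had a replicate 1 only summit, against 8 with a shared one. They were Mlp60A, a muscle LIM protein gene, with 54.4 and 33.0 at its promoter, and Mlc1, a myosin light chain gene, with 46.7 and 25.5 in an intron of its neighbour tau. Of 18 genes of integrin adhesion and tendon, 4 (22.2%) had a replicate 1 only summit, with signals of 39.8 to 71.7. They were stck (PINCH), Tsp (thrombospondin), mew (an integrin alpha subunit) and slow, and the mew site had CG32639 as the nearest TSS. In that list 12 genes (66.7%) had a replicate 2 only summit and 9 (50%) a shared one, against 22.6% and 25.2% of all genes. For the transcription factor and sarcomere lists, 6 and 4 genes had a replicate 2 only summit.

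Of 26 genes of Notch, EGFR and FGF signalling, 8 had a replicate 1 only summit, 13 a replicate 2 only summit and 16 a shared one, with a median gene length of 20651 bp. The 5 strongest sites were at rl, the ERK kinase gene (114 in replicate 1 and no replicate 2 entry), ths, an FGF ligand gene (72.1 and 19.3), vn, an EGFR ligand gene (69.5 and 37.6), aop, an ETS repressor gene (68.2 and 31.8) and pnt, an ETS activator gene (64.6 and 33.3). Of these, all but the aop site lay in introns. The window of the rl site was 92.0% sequence marked as repetitive, against a mean of 21.4% over replicate 1 only windows. The nearest replicate 2 peak to the rl site was 4.02e+06 bp away. The other 3 genes were E(spl)m7-HLH, mam and Egfr.

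For short, widely expressed genes the counts were 0 or 1, and with a share of 4.12% over all genes such counts say little about lists of this size. Among 93 cytoplasmic ribosomal protein genes, 1 (1.08%) had such a summit, against 41 with a replicate 2 only and 47 with a shared summit, at a median gene length of 1318 bp. That gene, RpS10a, had the tau intron peak also counted for Mlc1. Of 73 mitochondrial ribosomal protein genes, 1 (mRpS23) had a replicate 1 only summit, 28 a replicate 2 only and 24 a shared one. The summit counted for mRpS23 lay 53 bp from the TSS of GatC, which was the nearest. Of 16 heat shock genes, 0 had one, 3 had a replicate 2 only and 8 a shared summit.

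Markers of other embryonic tissues had 1 gene each with a replicate 1 only summit. They were fne of 16 for neurons (6.25%), nrv2 of 9 for glia (11.1%), grh of 11 for epidermis (9.09%) and ush of 14 for hemocytes and fat body (7.14%). Each share was above the 4.12% of all genes but rested on 1 gene. In the same order, 4, 2, 5 and 4 genes had a replicate 2 only summit and 4, 5, 3 and 3 a shared one. Their median gene lengths, 5247 to 13832.5 bp, were also above that of all genes. The strongest nrv2 site, with a signal of 77.7, had nrv1 as the nearest TSS and was in neither joint set. Of 23 insulator, promoter and chromatin factor genes, ph-d and mod(mdg4) had a replicate 1 only summit, against 15 with a shared summit. The mod(mdg4) site had pre-mod(mdg4)-U as the nearest TSS. Of 32 segmentation and Hox genes, a list added after values were seen, 5 (15.6%) had a replicate 1 only summit. A replicate 2 only summit was found in 4 (12.5%) and a shared one in 5 (15.6%). Over all genes the shares were 4.12%, 22.6% and 25.2%, in the same order. The median gene length was 6747.5 bp, against 2166 bp over all genes. The genes with a replicate 1 only summit were slp1 (93.4 in replicate 1 and 27.7 in replicate 2), wg (81.6 and 36.5), hh, bcd and Ubx. The bcd site had 53.4 and 33.2, and the Ubx site 45.9 and 17.5. The hh site had 60.0 and 24.4, with CG31457 as the nearest TSS.

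The genes with most replicate 1 only summits in the locus were sbb, Snoo and CG33158, with 4 each, beside 11, 5 and 2 shared summits. All are long, from 76964 to 93010 bp. Among the genes with 3, the loci of corn, Pura and otk held no shared and no replicate 2 only summit. The otk sites, all in introns, had signals of 49.99 to 76.0 in replicate 1 and replicate 2 ranks of 7642 to 14373. Of the 3 corn summits, 2 belonged to overlapping peaks with signals of 49.96 and 9.99. These genes were picked out after their values were seen.

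Motif content within 100 bp of the summit differed little. The 19 motifs were searched on both strands. For general and insulator factors they were CGATA for BEAF-32, TATCGATA for DREF, which contains the BEAF-32 motif, GGTCACAC for M1BP, GAGAGAG for GAGA factor and CAGGTAG for Zelda. For zinc finger proteins related to Lmd they were CCACCCA for the Gli type and CCCGCTG for the Zic type. For mesoderm, muscle and other tissue factors they were the Mef2 motif, CATATG for a Twist-type E-box, CAGCTG for another E-box, CACTTGA for Tinman, TAATTA for homeodomain proteins, GATAAG for GATA factors, CCGGAA for Ets proteins, GTGGGAA for Su(H) and AACCGG for Grainyhead. Simple repeats were CACACAC, named the CA repeat, CCCCCC, named the C run, and AAAAAAAA, named the A run. The BEAF-32 motif was in 18.3% of replicate 1 only and 24.6% of shared windows (Fisher's exact test, adjusted over 19 motifs, adjusted p = 0.0032). The Mef2 motif was in 9.91% and 13.9% (Fisher's exact test, adjusted p = 0.0323). For comparison, windows 1000 bp away held the BEAF-32 motif in 20.2% and 21.1% and the Mef2 motif in 7.82% and 6.96%. The Mef2 difference passed under none of the 8 alternatives (lowest adjusted p = 0.084, Fisher's exact test), and the BEAF-32 difference passed under 4 of 8.

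Among summits outside promoters the BEAF-32 motif was in 18.2% of replicate 1 only and 19.6% of shared windows and the Mef2 motif in 9.82% and 12.1% (Fisher's exact test, adjusted p = 0.844 and 0.577). Over all summits, the Gli-type motif, of the kind that Gli family zinc fingers bind, was in 2.74% and 1.49% (Fisher's exact test, adjusted p = 0.138). Again over all summits, the CA repeat was in 6.26% and 4.14% and the DREF motif in 1.04% and 2.15% (Fisher's exact test, adjusted p = 0.098 and 0.184). Within the 5 signal groups the DREF difference was −1.97 points and passed in the Mantel-Haenszel test, whereas outside promoters it was 0.551 points.

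All 8192 words of 7 bases, with reverse complements merged, were then compared in the same windows. At an adjusted p below 0.05 (Fisher's exact test), 2 words were more frequent in replicate 1 only windows (0.0244% of the words tested) and 4 were less frequent (0.0488%), while 477 and 235 had an unadjusted p below that level. The more frequent words were AACTCCT, in 2.74% of replicate 1 only and 0.664% of shared windows, and GGACCGA, in 1.69% and 0.221% (adjusted p = 0.0442 for both, Fisher's exact test). The less frequent ones were AGGGATG (0.261% and 2.34%) and 3 words of low GC content, AATATAC (3.91% and 8.13%), TAATAAA (11.6% and 17.7%) and AAAATTA (14.7% and 21.3%). Of the 8 alternatives, 7 left 0 less frequent words and the window of 50 bp left 1. More frequent words numbered 0 under 4 alternatives, among them summits outside promoters, and 2 or 3 under the others.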

How the data were processed

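Lmd-eGFP was measured by ChIP-seq in 2 biological replicates of 1 group, and peak lists in dm6 coordinates were used. Aligner and peak caller were not given in the sources used here. Deposited thresholded sets carry a signal value and a score of 830 to 1000, and the authors' ranked lists also the −log10 of the IDR, capped at 5. Every replicate 1 thresholded peak had an IDR at or below 0.01 there. Which rankings the IDR of a single replicate compares is not given. Ranks were computed by signal within a list.

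Summits were placed on Ensembl annotation release 115 (13945 protein-coding genes) with the promoter class taking precedence, then exonic classes, introns and the remainder, and sequence came from the RefSeq Release 6 genome. Shares were compared with Fisher's exact test, two-sided, with Benjamini-Hochberg adjustment and a threshold of 0.05 (Python 3.11.15, scipy 1.17.1), and with Mantel-Haenszel strata as an alternative. A planned permutation test of GC content over peaks was not run, because peaks are not replicates. Tests were checked on simulated data. Named sites are the 10 of highest signal, the 5 on each side of the rule's border, the 5 with the lowest replicate 2 IDR, lmd, Mef2 and up to 5 genes in each of 14 lists. Members and lists were chosen with earlier results of these data known.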

Additional observations from a re-analysis of the deposited data

How the results depend on the processing

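Over 9 alternatives each, the promoter difference between replicate 1 only and shared peaks ran from −36.2 to −13.8 points and the outside difference from 10.9 to 30.7 points, and both passed in each. The intron difference ran from 1.56 to 10.4 points. Of 170 alternative values of tested shares and of counts, 112 kept direction and side of the threshold or stayed within 1.5 times, 18 no longer passed, 2 newly passed, 17 changed sign and 21 counts moved by over 1.5 times. Of 16 alternative values of GC content and masked sequence, which had no test, 5 changed sign, all by less than the spread over peaks. The coding difference between replicate 1 only and replicate 2 only peaks newly passed with replicate 2 shortened (1.34 points). The cause of a change was not tested.

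Requiring an overlap of at least 0.5 of both peaks gave 1420 replicate 1 only peaks, 1.56 points for introns, −0.0214 for 2L, 0.110 for 2R, −0.00929 for chromosome 4, 2.58 for 3L and −2.13 for X, with 0 motifs lower and 0 words in either direction. Counting a replicate 2 peak within 500 bp as shared gave 0.451 for 3R, 1 motif lower and 0 words. Taking replicate 2 at IDR 0.05 gave −0.0625 for 5′ UTRs, −0.155 for 3′ UTRs, 0.431 for 3R, 1 motif lower and 0 words lower. Replicate 1 at IDR 0.001 left 282 peaks, with −0.202 for coding sequence, −2.07 for 2L, 0.736 for 3R, −0.0806 for chromosome 4, −4.54 for X, 0 motifs lower and 0 words lower. Within 5 signal groups the values were −0.0403 for 5′ UTRs, −0.0932 for 3′ UTRs and −4.08 for X, with 0 words lower. A promoter window of 1000 bp gave −0.0949 for 5′ UTRs. Windows of 50 bp gave 0 motifs lower, 0 words higher and 1 lower, and 5 groups of GC gave 1 motif and 0 words lower. Of the alternatives added after seeing the data, peaks in neither joint set gave −0.380 for 5′ UTRs and 2.13 for introns. Summits outside promoters gave 0.551 for DREF, 1.27 for 3R, 0 motifs lower and 0 words in either direction.

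Leaving out a replicate was not run, because both replicates define the sites. No paired analysis was possible because there is 1 group.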
